A study of Mus musculus with 2 samples.

Results

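GATA4 occupied sites (GATA4 OS) that lie in clusters were selected on their positions in the list of common GATA4 OS, the regions called by both peak callers of the study. An OS was taken as clustered when at least 2 other common OS had their midpoints within 25 kb on the same chromosome. This rule found 480 clustered OS among 4409 common OS (10.9%), which left 3929 others. The OS come from ChIP-seq with the antibody GATA4 C-20 on whole livers of mice of a mixed C57BL/6 and Sv129 background, 2 to 3 months old, with input DNA as the background. The age is that of the labels; the methods of the study give a range that starts and ends later. The labels list 1 ChIP and 1 input sample. The study describes a pair of biological replicates, each from a pair of mice, that were called singly and after merging into 1 list, so no value below has a replicate error. In ChIP-seq, DNA bound by a protein is enriched with an antibody and sequenced. The deposited tracks hold the position and number of each OS and the same score of 1000 for all of them, so neither the strength of an OS nor the depth behind it is known here.

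GATA4 is a zinc finger transcription factor that binds the motif WGATAR, in which W is A or T and R is A or G. It acts with FOG cofactors and with its relative GATA6, and in the liver it is present in hepatocytes and in the endothelial cells that line the sinusoids. Genes for tissue-specific proteins often carry several separated elements bound by 1 factor around it, in introns and upstream of the start. Whole liver holds both cell types, so which of them an OS came from cannot be told apart in these lists. The study reports that excision of Gata4 in hepatocytes removed GATA4 from the sites it examined by ChIP, at factor X, FOG1, HNF4α and HNF6. It reads this as occupancy in hepatocytes only at these genes. No endothelial gene is among those sites. The study also lists Stab1 and Stab2, both on the endothelial list used below, as raised on arrays of purified hepatocytes after Gata4 excision. It lists GATA4 OS near both genes. By RT-qPCR Stab2 changed in the same direction but was not significant in the study.

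The OS of the gene Zfpm1 are shown first because all 7 OS of their cluster lay in 1 gene. Zfpm1 encodes FOG1, the cofactor that binds GATA zinc fingers. For each OS the central 120 bases of the mm9 reference are given 5′ to 3′ on the plus strand, in order along chromosome 8, with WGATAR in capitals on either strand (a match on the minus strand shows as its reverse complement, such as TTATCT).
Zfpm1 OS4170, chr8:124808301-124808420: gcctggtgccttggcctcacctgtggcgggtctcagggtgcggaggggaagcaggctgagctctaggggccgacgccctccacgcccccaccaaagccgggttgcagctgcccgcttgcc
Zfpm1 OS534, chr8:124820574-124820693: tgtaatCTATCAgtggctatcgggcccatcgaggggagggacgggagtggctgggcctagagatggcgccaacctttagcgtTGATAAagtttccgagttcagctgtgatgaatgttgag
Zfpm1 OS109, chr8:124830790-124830909: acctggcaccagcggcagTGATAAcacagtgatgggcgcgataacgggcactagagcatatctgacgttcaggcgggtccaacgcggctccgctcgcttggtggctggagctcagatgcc
Zfpm1 OS1917, chr8:124837322-124837441: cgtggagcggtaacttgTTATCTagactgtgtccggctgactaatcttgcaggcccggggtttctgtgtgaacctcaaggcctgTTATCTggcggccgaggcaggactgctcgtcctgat
Zfpm1 OS305, chr8:124838945-124839064: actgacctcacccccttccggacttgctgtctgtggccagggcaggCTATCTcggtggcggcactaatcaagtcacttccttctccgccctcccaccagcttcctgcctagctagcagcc
Zfpm1 OS3884, chr8:124846803-124846922: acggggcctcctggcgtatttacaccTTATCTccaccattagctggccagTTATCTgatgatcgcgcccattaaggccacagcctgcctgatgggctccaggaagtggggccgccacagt
Zfpm1 OS502, chr8:124854482-124854601: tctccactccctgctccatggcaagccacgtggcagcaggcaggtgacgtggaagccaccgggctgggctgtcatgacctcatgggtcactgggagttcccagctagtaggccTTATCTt

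All 7 lay in introns of Zfpm1 (chr8:124806039-124861146), from 2322 to 48503 bp after its start. The motif was missing from OS4170 in the first intron and occurred 4 times in the whole of OS3884 in the third. The 7 OS together held 15 WGATAR matches. OS109 in intron 2 was the widest clustered OS, with 631 bp. Their list numbers, which are the numbers in the names of the OS, were 4170, 534, 109, 1917, 305, 3884 and 502 along the gene. The files do not say what the numbering follows, so a list number is given as a description only.

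The next sequences come from the lowest-numbered clustered OS of some other named genes, leaving out OS whose printed bases touched an exon. Except for OS17, which held no WGATAR, they show the motif at different places and on either strand.
Rdh1 OS17, chr10:127193261-127193380: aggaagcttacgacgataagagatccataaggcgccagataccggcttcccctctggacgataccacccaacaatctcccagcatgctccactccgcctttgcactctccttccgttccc
Epas1 OS15, chr17:87169219-87169338: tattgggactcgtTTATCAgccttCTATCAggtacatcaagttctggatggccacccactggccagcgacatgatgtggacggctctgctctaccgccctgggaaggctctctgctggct
Sepp1 OS185, chr15:3197611-3197730: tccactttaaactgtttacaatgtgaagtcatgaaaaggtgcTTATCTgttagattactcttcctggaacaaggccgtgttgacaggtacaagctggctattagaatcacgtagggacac
Lctl OS203, chr9:63932618-63932737: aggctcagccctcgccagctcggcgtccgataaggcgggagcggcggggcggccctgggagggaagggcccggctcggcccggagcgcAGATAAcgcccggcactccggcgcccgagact
Ptprb OS731, chr10:115725255-115725374: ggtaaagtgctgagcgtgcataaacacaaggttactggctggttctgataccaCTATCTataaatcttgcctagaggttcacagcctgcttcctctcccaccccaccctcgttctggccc
Foxn3 OS80, chr12:100678373-100678492: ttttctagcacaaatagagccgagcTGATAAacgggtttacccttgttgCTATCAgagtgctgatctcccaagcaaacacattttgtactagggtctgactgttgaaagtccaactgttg
Masp1 OS413, chr16:23506350-23506469: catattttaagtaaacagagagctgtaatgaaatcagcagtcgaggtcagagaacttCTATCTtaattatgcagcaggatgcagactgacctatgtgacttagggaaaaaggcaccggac
Oit3 OS45, chr10:58906165-58906284: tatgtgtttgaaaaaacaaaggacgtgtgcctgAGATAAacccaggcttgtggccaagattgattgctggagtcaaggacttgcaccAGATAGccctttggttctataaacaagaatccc
Erg OS352, chr16:95661622-95661741: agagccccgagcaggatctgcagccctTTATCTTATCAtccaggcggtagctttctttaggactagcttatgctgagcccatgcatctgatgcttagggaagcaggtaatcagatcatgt
Gata4 OS357, chr14:63962531-63962650: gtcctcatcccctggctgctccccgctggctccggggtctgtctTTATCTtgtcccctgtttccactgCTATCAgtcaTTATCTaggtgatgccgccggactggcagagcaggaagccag

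OS17, upstream of the retinol dehydrogenase gene Rdh1, held no WGATAR in its 327 bp. The study also counts the shorter forms WGATA and GATAR, and both occur in the bases printed for OS17. OS15 in the first intron of Epas1, which encodes a hypoxia-inducible transcription factor, held 2 WGATAR. OS352 in intron 3 of the ETS factor gene Erg held 2 matches that share bases, so that the capitals form 1 run. OS357, whose nearest coding start is that of Gata4 itself, held 3. Gata4 falls outside the rule for named genes and was chosen after its values were seen.

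The 480 clustered OS fell into 165 clusters when common OS with midpoints at most 25 kb apart were chained. These clusters held 574 common OS, of which 94 were cluster ends with only 1 other OS in reach and were not counted as clustered. Of the clusters, 124 held 3 OS, 19 held 4, 10 held 5, 8 held 6 and 4 held 7. Of all common OS, 2887 had no other within 25 kb, 1042 had 1, 359 had 2, 64 had 3, 37 had 4, 14 had 5 and 6 had 6. Clusters were therefore mostly triplets, and larger groups were few.

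From the first to the last midpoint a cluster spanned 21838 bp in the median, from 1706 to 93302 bp. The 409 gaps between neighbours had a median of 8196.5 bp and ranged from 217 to 24942 bp. Of these gaps, 136 (33.3%) were under 5 kb and 33 (8.07%) under 1 kb. The nearest other OS stood 5113.5 bp away in the median for clustered OS and 71792 bp away for the others, a contrast that the rule fixes. Only 4 clustered OS overlapped another common OS. Just inside the threshold were OS3655 at Fam158a, OS592 at Stab2 and OS2014 at Iqsec1, whose second neighbours stood 24942, 24793 and 24783 bp away. Just outside were OS2559 at Bcl2l1, OS2289 at Maml3 and OS3143 at Dnase1l3, with 25068.5, 25104.5 and 25253.5 bp.

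**Figure D1:**
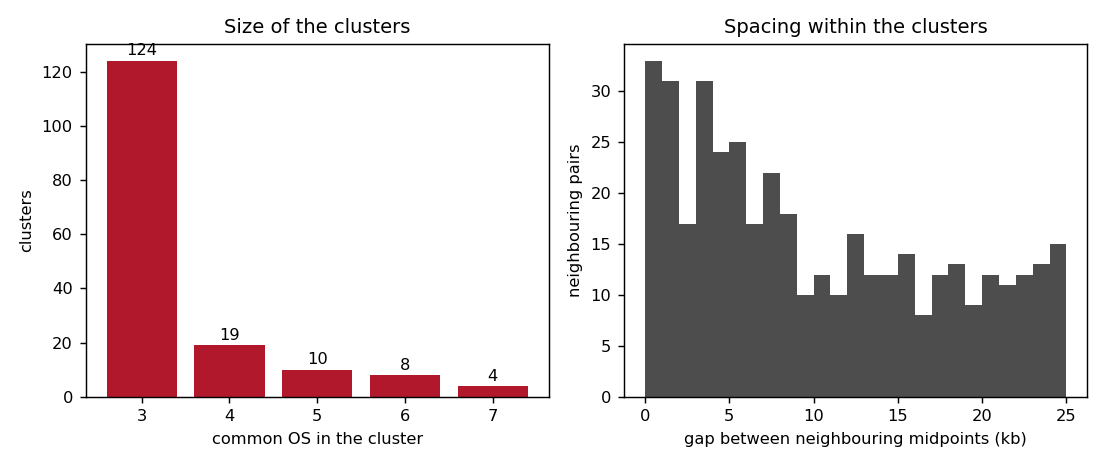
Left, number of clusters by the number of common OS they hold; right, number of neighbouring pairs of OS by the gap between their midpoints in kb, in bins of 1 kb. Triplets make up 124 of 165 clusters, and 136 of 409 gaps are under 5 kb.

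Clustered OS occurred on all 19 autosomes. Over all chromosomes 10.9% of the common OS were clustered. Chromosome 10 had the most, 52 of its 316 common OS (16.5%), and chromosome 19 the lowest share among autosomes, 7 of 137 (5.11%). Differences between chromosomes were not tested. Chromosome X had 0 of 30, which allows a share of up to 10%. The 20 largest clusters, with ties at 5 OS broken by the lowest list number, held 116 common OS, of which 102 were clustered by the rule, and 5 of them were on chromosome 10.

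Of 4 clusters with 7 OS each, the 1 with the smallest span lay on chromosome 10 (chr10:127175830-127201082) over Zbtb39, Gpr182 and Rdh1. Gpr182 encodes a chemokine-binding receptor of sinusoidal and lymphatic endothelium, and Zbtb39 a zinc finger protein. Its 7 OS were within 25151.5 bp of each other. OS3228 stood 716 bp upstream of the start of Zbtb39 and OS656 was in exon 2 of Gpr182. OS1527 and OS2030 were 3167 and 3722 bp upstream of Gpr182, while OS17 and OS4210 were 3456 and 373 bp upstream of Rdh1, and OS3545 lay in intron 2 of Rdh1. Because Gpr182 and Rdh1 start near each other on opposite strands, the assignment of the OS between them to either gene is by distance alone. WGATAR was found in 5 of the 7.

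Besides Zfpm1, the other clusters of 7 OS were at Fgd2 and Pim1 and at Aldh8a1. Fgd2 encodes an activator of the small GTPase Cdc42, and Pim1 a serine/threonine kinase. All OS of that cluster lay between both genes, from 20395 bp after the nearest transcript start of Fgd2, which is inside the gene, to 22825 bp before the start of Pim1. Aldh8a1 encodes an aldehyde dehydrogenase. Its cluster began with OS975 in exon 7 of Aldh8a1 and ran past the gene to the predicted gene 1700021A07Rik, over 48931.5 bp.

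**Figure D2:**
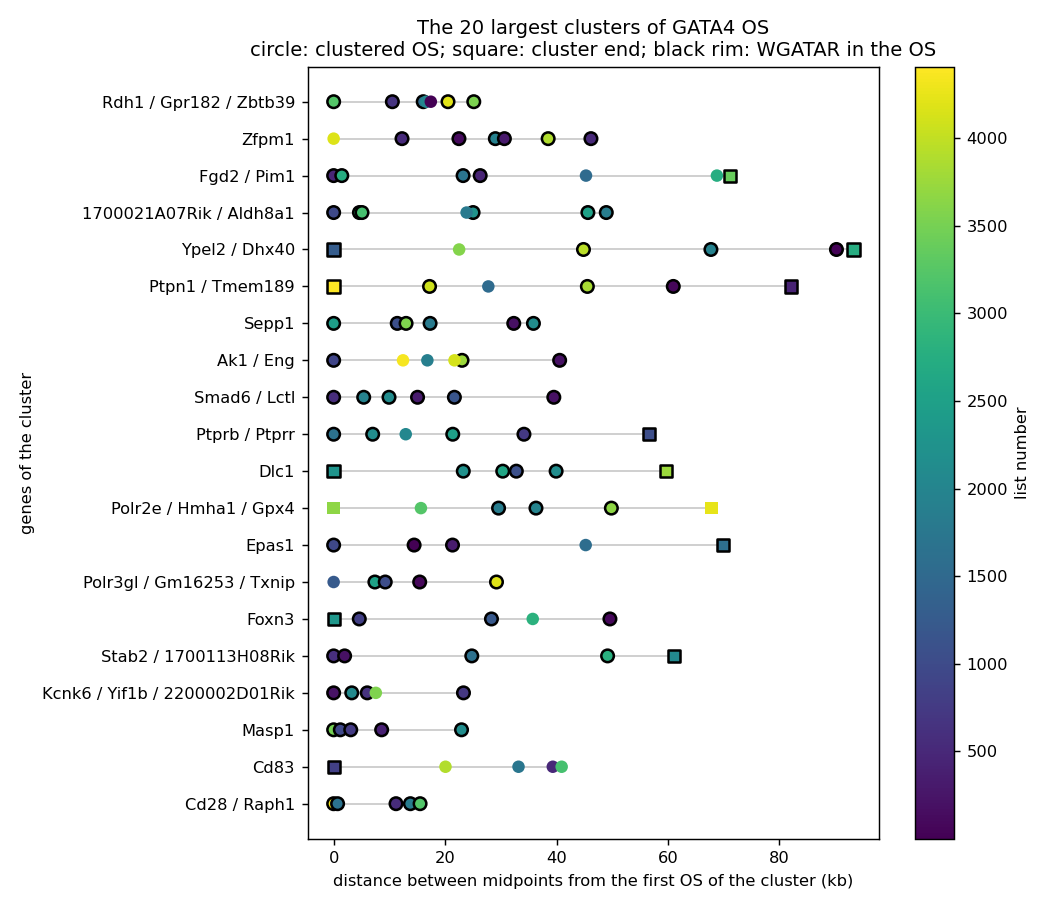
The 20 clusters with the most common OS, each drawn from its first midpoint, with the distance in kb on the x axis and the genes of the cluster on the y axis. Circles are clustered OS, squares cluster ends, a black rim marks WGATAR in the OS and colour gives the list number; low and high numbers stand in the same cluster, and rimless symbols are most frequent at Cd83, where 1 of 5 OS holds WGATAR.

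Several large clusters stood outside the coding gene they were nearest to. The 6 OS assigned to Sepp1 (cluster at chr15:3165184-3201264), which encodes the selenium carrier selenoprotein P that the liver secretes, were all intergenic, from 53203 to 17347 bp upstream of its start, and each held WGATAR. At Smad6 (cluster at chr9:63893046-63932819), an inhibitor of BMP and TGF-beta signalling, 5 OS lay 23294 to 44965 bp upstream of the start, and a sixth, OS203, was nearer to the start of Lctl. All 6 held WGATAR. The 5 OS near Cd28 (chr1:60698350-60714096), a costimulatory receptor of T cells, and Raph1 were intergenic as well, with WGATAR in each. At Ptpn1, whose phosphatase acts on the insulin receptor, the clustered OS lay 65054 to 108798 bp upstream of the start, so this name is that of the nearest coding gene and no more. The OS named for Cd83 stood even farther away, 241315 to 282238 bp after its nearest transcript start. The cluster nearest to Gata4 (chr14:63944849-63962728) had its 3 OS 54374, 66995 and 72062 bp upstream, with 1, 0 and 3 WGATAR.

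Other clusters filled introns. All 5 OS of Foxn3 (chr12:100628777-100678559), a forkhead repressor, were in the gene, and its 4 clustered OS lay in the first intron of a transcript. WGATAR was in 4 of the 5. Dlc1 (chr8:37708229-37768067) had 6 OS in its introns, all with WGATAR. Masp1 (chr16:23497754-23520818), a protease of the lectin pathway of complement, had OS3484, OS958, OS759 and OS413 in intron 2 and OS2140 at 71 bp before the start, and each of these 5 held WGATAR. Epas1 (chr17:87154736-87224780) had OS957, OS15 and OS344 in intron 1 at 1591, 16032 and 22926 bp after the start and OS1567 in intron 2. OS1567 was the only OS of the Epas1 cluster without the motif.

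Other clusters ran over several neighbouring genes. OS of 1 cluster stood at Abca7, a lipid transporter, at Hmha1, at Polr2e, a subunit of RNA polymerases, at Gpx4, which reduces lipid peroxides, and at Sbno2, and 3 of its 6 OS held WGATAR. OS1991 was 85 bp upstream of Polr2e. The cluster of Txnip, an inhibitor of thioredoxin, and Polr3gl, a subunit of RNA polymerase III, had WGATAR in 4 of 5 OS, and that of the potassium channel gene Kcnk6 and Yif1b in 4 of 5. The cluster of Ypel2 and the helicase gene Dhx40 had the greatest span of all, 93302 bp, with OS31 in intron 2 of Ypel2. In 116 of the 165 clusters (70.3%) all OS were assigned to the same gene, and the clustered OS were assigned to 199 genes in all.

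Endothelial genes, including those of the sinusoids, were taken as a list. Of 44 genes of an endothelial list, 35 had a common OS in the gene or within 10 kb of it, and 13 (29.5%) had a clustered one. Over all 22380 protein-coding genes, 3065 had a common OS and 195 (0.871%) a clustered one. Among genes with any common OS the shares were 37.1% of the endothelial genes and 6.36% of all. The list was written with earlier results of these data known, so these shares are given without a test. With neighbours within 10 kb, 4 endothelial genes (9.09%) and 65 coding genes (0.29%) had a clustered OS. Genes with a clustered OS had a median length of 24827 bp, those with only other common OS 33249.5 bp, the endothelial list 24373 bp and all coding genes 15420.5 bp; the part of gene length in these shares was not tested.

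Gpr182 had 6 common OS in this window and all were clustered, with list numbers 17, 656, 1527, 2030, 3228 and 4210. Ets1, an ETS transcription factor, also had 6, in separate clusters of 3 that lay in introns 2 and 3 and at the end of the gene. The second of these clusters held OS3069 in exon 7 and OS1674 and OS2364 beyond the last exon. Eng (chr2:32502115-32538189), the TGF-beta and BMP co-receptor endoglin, had 4, of which OS201 was in its intron 2 and OS1895, OS4123 and OS3750 lay in introns of its upstream neighbour Ak1, an adenylate kinase. WGATAR was found in 3 of the 6 OS of the cluster at Eng and Ak1. OS201 held 3 of the 5 matches there. Epas1, which is also on the hypoxia list, had 4 clustered OS of its 5.

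The remaining endothelial genes had 3 clustered OS or fewer. In Stab2 (chr10:86303943-86470770), the scavenger receptor stabilin-2 of sinusoidal endothelium, OS592 and OS200 lay 17212 and 15242 bp after the start in intron 3 and OS1635 lay 7581 bp upstream. OS200 held 4 WGATAR, and every OS of that cluster held at least 1. Kdr (chr5:76328852-76374483), a receptor for VEGF, had OS2353 and OS262 in intron 10, with midpoints 457.5 bp apart, and OS3923 in intron 27. Ptprb, a phosphatase of endothelial junctions, had OS2497 at 42 bp before its start and OS731 in intron 3, while OS1655, OS2147 and OS2040 of its cluster lay in introns of the neighbour Ptprr. Tek, the angiopoietin receptor, had OS164 at its first exon with OS1355 in intron 1. For Oit3, OS45 and OS46 stood 1699 and 161 bp before the start, and OS611 lay in exon 5.

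The ETS factor genes Erg and Fli1 had 3 clustered OS each, Dnase1l3, a secreted deoxyribonuclease, and Egfl7, a secreted endothelial protein, 1 each. Fli1 had OS1783 and OS4063 in its first intron and OS2010 at 235 bp before the start, and all held WGATAR. On the same list, Flt1, Mrc1, Pecam1, Cdh5 and Stab1 had 1 to 3 common OS and none that was clustered. Clusters with OS assigned to S1pr1 and Maf, also on the list, lay outside the window of 10 kb and were not counted.

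The other lists are read beside the share of all coding genes with a clustered OS, 0.871% (6.36% of those with a common OS), by which a list of this size would hold few such genes or none, so a count of 0 is near the background. Of 44 lipid, cholesterol and bile acid genes, 21 had a common OS and 0 a clustered one. Of 36 plasma protein, coagulation and complement genes, 12 had a common OS and 0 a clustered one; Masp1, described above, is not on that list. OS441 at Apoa2 and OS1172 at Dgat2, both on the lipid list, were cluster ends and so not counted as clustered. Alb, which encodes albumin, and Cyp7a1, the rate-limiting enzyme of bile acid synthesis, each had 1 common OS. The median gene length was 23762.5 bp for the lipid list, 16078.5 bp for the plasma protein list and 24373 bp for the endothelial list. The part of gene length in these counts was not tested. The count of genes with a clustered OS was also 0 for the 18 clock genes, the 24 genes of growth hormone, cytokine and EGF receptor signalling, the 16 Notch pathway genes, the 23 Kupffer and blood cell genes or the 18 cardiac contractile genes. Of these lists, 6, 8, 3, 1 and 3 genes had a common OS, too few to set a 0 apart from the background share. These counts hold for the window of 10 kb only. Il6st, Lifr and Errfi1 of the signalling list were the nearest coding genes of clusters of 5, 4 and 3 OS that lay outside it. The glucose list had 10 of 24 genes with a common OS and 1 with a cluster, Slc2a2, the glucose transporter of hepatocytes, with OS1893, OS2852 and OS533 in introns 2, 4 and 8.

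Among liver-enriched transcription factors, 12 of 20 had a common OS and 1 a clustered one. This was Nr5a2, a nuclear receptor that acts on bile acid synthesis, with OS379 and OS4260 at 186 and 403 bp before its start. These 2 OS overlap, so part of their sequence was counted in both. Among GATA and FOG factors Zfpm1 had 7 clustered OS, while Gata2, Gata4 and Gata6 had 2, 1 and 1 common OS within 10 kb and none clustered. Of 28 BMP, TGF-beta and Smad genes, Eng and Bmp6, a BMP ligand, had clustered OS within 10 kb. The OS of the Smad6 cluster described above lay outside that window. OS3431, OS2963 and OS1702 of Bmp6 all lay in its intron 2. Of 22 stellate cell and matrix genes, Col4a1, a basement membrane collagen, had 4, all in introns 1 and 2.

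**Figure D3:**
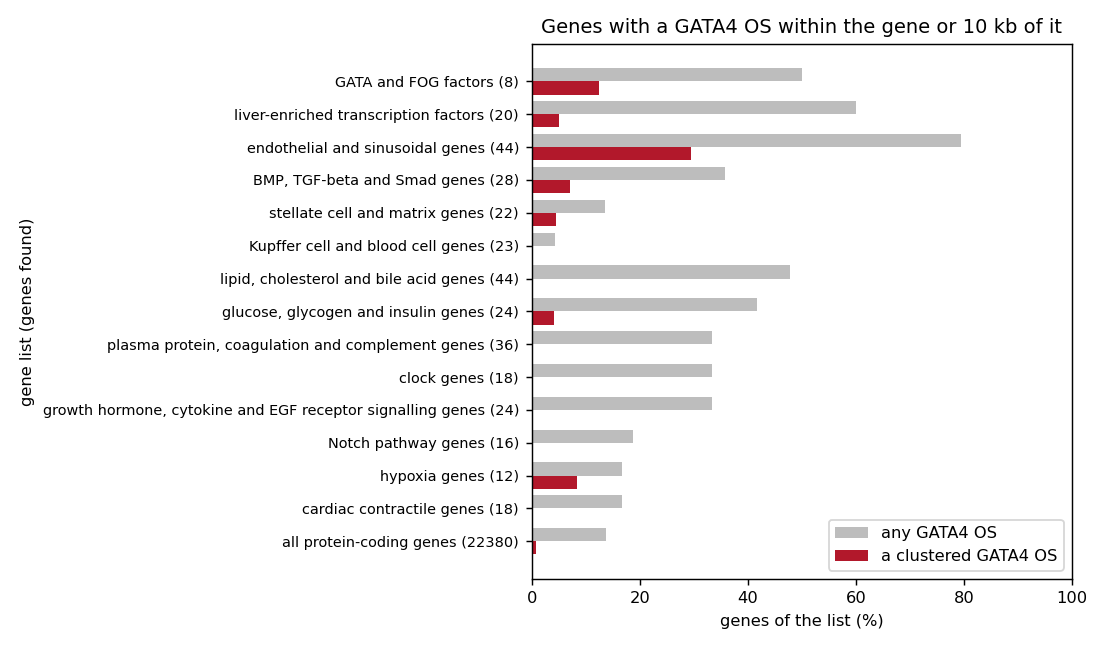
Share of the genes of each list (%, number of genes found in brackets) with any common GATA4 OS (grey bars) and with a clustered one (red bars) from 10 kb upstream to 10 kb downstream of the gene. The endothelial list has the longest red bar, 29.5%, against 0.871% of all protein-coding genes.

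The next comparison asked whether clustered OS differed from the other common OS in sequence or position in the gene, which the rule did not use. WGATAR was found in the central 200 bp of 394 of 480 clustered OS (82.1%, 95% Wilson interval 78.4 to 85.3) and of 3306 of 3929 others (84.1%, 83.0 to 85.3), against 83.9% of all common OS. The difference of -2.06 percentage points (interval -5.90 to 1.32) did not pass Fisher's exact test (two-sided, Benjamini-Hochberg adjusted over 11 features, adjusted p = 0.58). Units of this test are OS of 1 pooled sample, and neighbours share their chromatin, so they are not independent. In whole OS, WGATAR occurred 6.24 times per kb of clustered OS and 6.22 times per kb of the others.

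Within the clustered OS, 93 (19.4%) held no WGATAR, 208 (43.3%) held 1 and 121 (25.2%) held 2. A further 52 (10.8%) held 3 and 6 (1.25%) held 4 or more. Of the other common OS, 16.8%, 48.8%, 24.9%, 7.36% and 2.11% held these numbers. AGATAA was the most frequent spelling with 279 of 630 matches (44.3%), before TGATAA with 186 (29.5%), AGATAG with 99 (15.7%) and TGATAG with 66 (10.5%). In the other common OS these spellings made up 44.7%, 26.5%, 17.8% and 11.1% of the matches. Every OS of a cluster held the motif in 81 of 165 clusters (49.1%), and no cluster lacked it in all of its OS. Most OS of either group held the motif, and no background was computed for counts per cluster, so these are descriptions only. Among the 20 largest clusters, WGATAR was in all OS of 6, those of Sepp1, Smad6, Dlc1, Stab2, Masp1 and Cd28, and it was also in all 5 OS near Il6st, a cluster of 5 that the tie left out. The lowest-numbered OS of a cluster held it in 139 of 165 clusters (84.2%) and the highest-numbered in 132 (80%). Over whole OS it was in 80.6% of the clustered OS and 83.2% of the others. Around the midpoint the motif had a like distribution in both groups. In the 20 bp before the midpoint there were 25.4 matches per 100 clustered OS and 24.9 per 100 others, and from 180 to 200 bp after it 3.33 and 3.95.

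**Figure D4:**
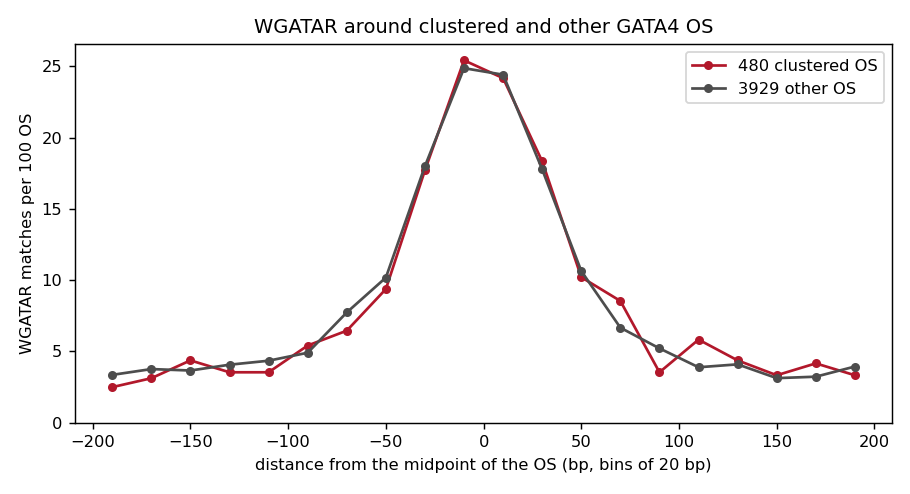
WGATAR matches per 100 OS (y axis) by distance from the midpoint of the OS in bp (x axis, bins of 20 bp) for 480 clustered and 3929 other OS. Both lines peak in the bins beside the midpoint, at 25.4 and 24.9 matches per 100 OS in the 20 bp before it, and level off by 200 bp.

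Motifs of other liver and endothelial factors did not separate clustered OS from the rest either. Matches were exact, on both strands, in the central 200 bp. FOXA motifs (TGTTTAC or TGTTTGC) were in 52 clustered OS (10.8%) and in 12.3% of the others, against 12.2% of all. HNF4 motifs (CAAAGTCCA or CAAAGGTCA) were in 10 clustered OS (2.08%), against 2.54% of all. CEBP motifs (TTNNGCAA) were in 48 of the 480 clustered OS and in 13% of the others, against 12.7% of all; the difference was -3.03 points (interval -5.64 to 0.15, adjusted p = 0.27 by Fisher's exact test). ETS motifs (CAGGAA or CCGGAA), read by factors that include Ets1, Erg and Fli1, were in 235 clustered OS (49.0%) and 47.6% of the others, against 47.7% of all. AP-1 motifs (TGANTCA) were in 33 clustered OS (6.88%), against 7.3% of all. KLF motifs (CCNCNCCC) were in 102 clustered OS (21.3%), against 21.5% of all. E-boxes (CAGCTG or CAGATG) were in 135 clustered OS (28.1%), against 27.6% of all. A short match is a description of the letters and not a bound site.

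By position, 69 clustered OS (14.4%) and 721 others (18.4%) lay within 1 kb of a transcription start site (TSS), against 17.9% of all common OS. This difference of -3.98 points (interval -7.09 to -0.36) gave the only unadjusted p under the threshold of 0.05 among the 11 features (p = 0.032, Fisher's exact test) and did not pass after adjustment (adjusted p = 0.27). It passed with neighbours within 50 kb (-5.48 points, adjusted p = 0.0011, Fisher's exact test), where OS of 1 cluster again count as separate units. With 1 OS per cluster at 25 kb, 165 in all, the difference was -3.81 points (adjusted p = 0.81, Fisher's exact test). OS outside the window from 5 kb upstream of a transcript to 5 kb downstream of it were called intergenic. They were 152 of the clustered OS (31.7%) and 1130 of the others (28.8%), against 29.1% of all, a difference of 2.91 points (interval -1.35 to 7.42, adjusted p = 0.55, Fisher's exact test). CpG-rich sequence was at 40 clustered OS (8.33%) and 433 others (11%), against 10.7% of all, a difference of -2.69 points (interval -5.07 to 0.28, adjusted p = 0.27, Fisher's exact test). No feature of the 11 passed after adjustment, and the intervals leave differences of several percentage points possible.

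**Figure D5:**
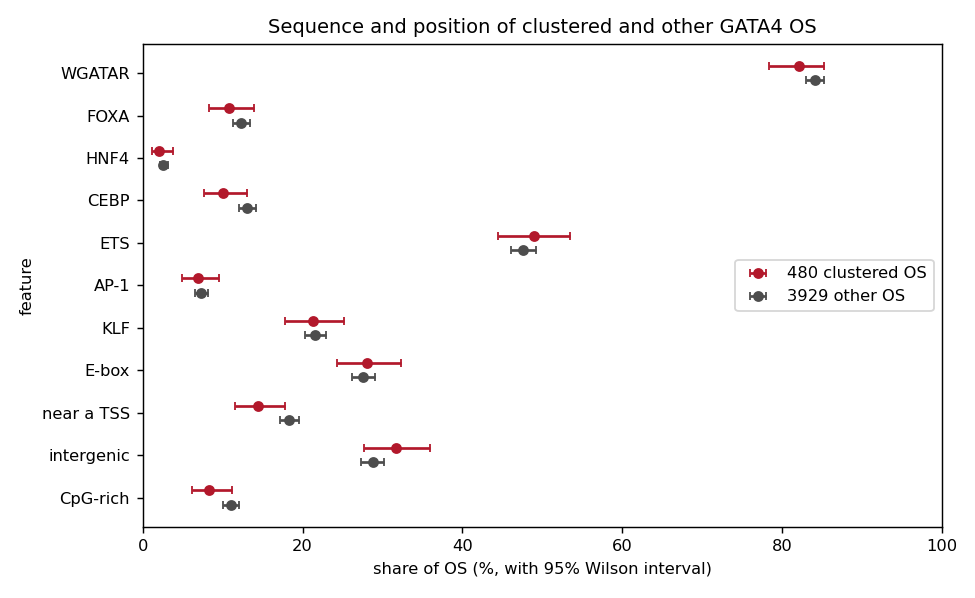
Share of OS with each feature (%, x axis) for 480 clustered OS (red) and 3929 other OS (grey), with 95% Wilson intervals as bars. Points of both groups lie close together for WGATAR (82.1% and 84.1%) and lie farther apart near a TSS (14.4% and 18.4%).

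Over 1 kb from a TSS, 70 clustered OS (14.6%) were in a first intron, 125 (26%) in a later intron, 9 (1.88%) in an exon and 207 (43.1%) outside coding genes. Of the other common OS, 14.5%, 25.8%, 1.78% and 39.6% were placed there. Clustered OS stood 13194 bp and the others 10332 bp from the nearest TSS in the median.

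Width and list number, which come from the same calls as the positions, are given without a test. Clustered OS were 194 bp wide in the median and the others 189 bp. A width of 320 bp was the most frequent in the list, with 105 clustered OS (21.9%) and 1022 of the 3929 others. The lowest and highest numbers of a cluster were over 2000 apart in 110 of 165 clusters (66.7%). No background was computed for this count, and numbers unrelated to position would often lie far apart too. The lowest number of a cluster was 669 in the median. Of the first 1103 numbers, 142 (12.9%) were clustered OS, and of the following 3 stretches of 1102 numbers each 110 (9.98%), 114 (10.3%) and 114 (10.3%). Over the whole list the share was 10.9%. Of the first 10 numbers 0 were clustered and of the first 100 there were 15. These came from Epas1 (OS15), Rdh1 (OS17), Oit3 (OS45 and OS46), Polr3gl (OS70), Ptpn1 (OS78), Foxn3 (OS80) and other genes.

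Whether a cluster is several OS or a broad one split by the caller was described with the second list of the study, that of MACS2. In 151 of 165 clusters (91.5%) the OS lay under at least 3 separate MACS2 regions. In all, 34 clustered OS (7.08%) and 42 others (1.07%) shared their MACS2 region with another common OS, and their closeness makes such sharing more likely. A further MACS2 region outside the common list lay within 25 kb of 133 clustered OS (27.7%) and of 487 others (12.4%). No pair of OS of 1 cluster shared a run of 16 bases in their central 200 bp, on either strand, among 790 pairs at least 200 bp apart.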

How the data were processed

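GATA4 ChIP-seq and input DNA from whole mouse liver were analysed from the peak lists of 1 ChIP sample. The authors aligned reads to mm9 with Bowtie 0.12.7, kept unique reads, took peaks from MACS2 2.0.10 and an adapted SPP by the IDR protocol, on replicates and on merged reads, and intersected both lists with bedtools 2.16.1, keeping SPP coordinates. The deposited score was set to 1000 for each peak by the authors and was not used. The input has no file analysed here. The lists held 4409 common, 4811 SPP and 5867 MACS2 peaks; no peak left the reference.

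Clustered OS were found by midpoints (25 kb, 2 others), chained into clusters and compared with all other common OS by Fisher's exact test, with Wilson and Newcombe intervals at 95% that cover counting error only, and Benjamini-Hochberg adjustment over 11 features. Sequence came from NCBI Build 37 (mm9) and genes from GENCODE M1 (22380 coding genes). An OS was assigned to the coding transcript over its midpoint, otherwise to the nearest coding start. CpG-rich meant an observed to expected CpG ratio of at least 0.6 and at least 50% GC in the central 200 bp. RefSeq tables were not used. The members and gene lists were chosen with earlier results of these data known. Named are the genes of the 20 largest clusters and, per list, up to 4 genes with the most clustered OS; other genes were named after their values were seen. Alternatives were the neighbour distance and number, distance between edges, the other lists, 1 OS per cluster, parts of the list and other stretches of sequence. Tools were samtools 1.23.1, Python 3.11.15, pysam 0.24.0, scipy 1.17.1, numpy 2.4.6 and matplotlib 3.10.9, and the steps were tested on simulated data.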

Additional observations from a re-analysis of the deposited data

How the results depend on the processing

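Of 161 values recomputed under the alternatives, 124 were labelled as kept. A difference in share was kept when its direction and its side of the threshold held. Counts have neither, and were kept when their size stayed alike. Counts of other motifs that passed were 0 in every setting, so 124 overstates how many values were put to a test. Among the differences for single motifs, 64 of 84 were kept. Clustered OS and clusters numbered 156 and 61 with neighbours within 10 kb, 900 and 295 within 50 kb, 121 and 34 with at least 3 other OS, and 840 and 275 in the MACS2 list. The lower share near a TSS passed the test within 50 kb (-5.48 points, adjusted p = 0.0011) and in the MACS2 list (-4.58 points, adjusted p = 0.012, Fisher's exact test), and the CpG-rich share passed in the MACS2 list (-4.28 points, adjusted p = 0.0048).

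Differences in WGATAR share turned with at least 3 other OS (2.09 points), in intergenic share in the MACS2 list (-0.33) and the upper 50% of the list by number (-2.27), and in CpG-rich share over 1 kb from a TSS (1.36). Single motifs changed sign in 20 values, none past the threshold. FOXA came to 0.69 within 10 kb, 0.25 with at least 3 others, 4.04 with 1 OS per cluster and 0.61 in the upper 50%. HNF4 came to 1.35 within 10 kb, 0.21 in the MACS2 list and 1.04 with 1 OS per cluster. ETS came to -5.75 with at least 3 others, -0.11 in the SPP list, -0.93 with 1 OS per cluster and -2.54 in the central 100 bp. AP-1 came to 0.60 within 50 kb and 0.14 with at least 3 others. KLF came to 1.41 within 50 kb, 2.49 with at least 3 others, 1.94 in the MACS2 list, 0.67 in the upper 50%, 1.12 over 1 kb from a TSS and 1.09 with OS that share a MACS2 region counted as 1. The E-box came to -1.30 over whole OS. The cause of these turns was not tested.

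Alternatives for the endothelial list, and the setting that counts OS under 1 MACS2 region as 1, were chosen after seeing the data. The 13 endothelial genes with a clustered OS became 4 of 44 within 10 kb (0.29% of all coding genes) and 5 with at least 3 others (0.214%). The repeat share planned was not run, since the reference is not masked. No paired analysis was possible because there is 1 ChIP sample. With no replicates and no read counts, error between animals and depth limit every value.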

Other observations

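Bach2, a transcription factor gene of B cells outside the lists and the rule for named genes and chosen after its values were seen, had 9 common OS within 10 kb, of which 6 were clustered. OS4137, OS1358 and OS3015 lay 6971, 8135 and 8880 bp after its start and OS27, OS4081 and OS1306 lay 49278, 49841 and 67567 bp after it, all in the first intron and all with WGATAR. OS27 held 3 matches and has the lowest list number of the gene. Vps13d and Plcb4, chosen likewise, had 4 clustered OS of 6 and of 5.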
